A study of Mus musculus with 2 samples.

Results

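Expression of 9 genes of meiotic recombination and crossover formation, Spo11, Dmc1, Meiob, Hormad1, Hormad2, Msh4, Msh5, Mlh3 and Tex11, was followed across all 2552 cells of dissociated testis from 2 mice. The genes were chosen by symbol, 9 of 51868 rows of the count matrix, of which 50686 were genes and 1182 were repeat elements. Both animals were untreated wildtype C57Bl/6J Crl males aged 8 weeks, described by the study as littermates, so the comparisons are between cell types within 1 condition and the mice are the replicates. Droplet libraries (Chromium 3' chemistry) counted unique molecular identifiers (UMIs), tags that mark single cDNA molecules. Mouse 1 gave 1237 cells with 27450497 UMIs and mouse 2 gave 1315 cells with 30302332 UMIs, and the mice shared 0 cell barcodes.

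Meiotic recombination starts with programmed breaks in DNA, made by the SPO11 complex in leptotene spermatocytes on chromosome axes that carry the HORMA domain proteins HORMAD1 and HORMAD2. The recombinase DMC1 then pairs the broken ends with the homologous chromosome, and MEIOB, a protein that binds exposed DNA strands, is needed to keep the ends in repair. MSH4 and MSH5 act as a pair to hold recombination intermediates together, TEX11 is an X-encoded protein of the same sites, and MLH3 helps to turn a subset of them into crossovers during pachytene. Round spermatids are the haploid cells that follow the meiotic divisions, and elongating and condensing spermatids pack their DNA with protamines.

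Cells were grouped by K-means clustering without the 9 genes and without 57 other recombination genes, so that none of these defined the groups. Clusters were named from marker genes. Early spermatocyte-like cells numbered 163 (52 from mouse 1 and 111 from mouse 2), pachytene or later spermatocyte-like cells 527 (308 and 219) and round spermatid-like cells 449 (190 and 259). Elongating or condensing spermatid-like cells fell into a Prm1-led cluster of 509 cells (281 and 228) and a Hemgn-led cluster of 196 (87 and 109). A further 689 cells (309 and 380) formed a cluster led by Ssxb1, in which 1 of 12 round spermatid markers was raised at least 1.5-fold, and it was left unnamed. Spermatogonium-like, Sertoli-like and Leydig-like cells numbered 7, 7 and 5. The summed level of 12 spermatogonium markers ranged from 10.1 to 36.3 CPM (UMIs for each 1000000 UMIs of the cluster) over the 6 large clusters against 1432 in the spermatogonium-like cells, with 3 of the 12 at 0 in the early spermatocyte-like cells. The 15 Sertoli markers summed to 30.2 to 66.2 and the 9 Leydig markers to 31.4 to 55.2 CPM in the same 6 clusters. The 15 early spermatocyte markers summed to 6753 CPM in early spermatocyte-like and 2568 in pachytene or later cells. The 14 pachytene or later markers summed to 8435 and 11165 CPM in the same clusters. The name of the early class therefore does not exclude pachytene cells.

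All 9 genes had UMIs in both mice, from 105 for Tex11 and 115 for Dmc1 to 3430 for Hormad1 and 4484 for Spo11. Meiob had 302, Hormad2 362, Msh5 384, Msh4 548 and Mlh3 977. The precision of each level follows from these counts, and for Dmc1 and Tex11 most values below rest on fewer than 50 molecules. In the GRCm38 annotation the genes lie on 7 chromosomes: Spo11 on chromosome 2 (172977700 to 172993576), Hormad1 and Msh4 on chromosome 3 (95559677 to 95587671 and 153857149 to 153906138), Hormad2 on chromosome 11 (4345814 to 4441105) and Mlh3 on chromosome 12 (85234520 to 85270599). Dmc1 is on chromosome 15 (79561497 to 79605109), Meiob and Msh5 on chromosome 17 (24804289 to 24839788 and 35028605 to 35046745) and Tex11 on chromosome X (100838648 to 101059667). None of the genes annotated within or across them on either strand, 7 small RNAs and pseudogenes in all, had a UMI.

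Promoter sequences, 250 bases ending at the transcription start in RefSeq (GRCm38.p6), were available for 6 of the 9 genes, Dmc1, Hormad1, Hormad2, Msh4, Msh5 and Mlh3. Among the large clusters, the share of UMIs of Hormad1, Hormad2, Msh5 and Mlh3 was highest in early spermatocyte-like cells and lower in every later cluster. For Msh5 the difference from pachytene or later cells was not called in the test below. Msh4 was higher in round spermatids than in pachytene cells. Without that of Hormad2, the sequences shown here are those of Hormad1, Msh5, Mlh3 and Msh4. They lie at chr3:95559427-95559676 (plus strand), chr17:35046623-35046872 (minus), chr12:85270600-85270849 (minus) and chr3:153904892-153905141 (minus), and are written 5′ to 3′ with matches to an E-box (CACGTG), to E2F-type motifs (GGCGGGAA or TTTGGCGC) or to a cyclic AMP response element (TGACGTCA) in capitals.
Hormad1: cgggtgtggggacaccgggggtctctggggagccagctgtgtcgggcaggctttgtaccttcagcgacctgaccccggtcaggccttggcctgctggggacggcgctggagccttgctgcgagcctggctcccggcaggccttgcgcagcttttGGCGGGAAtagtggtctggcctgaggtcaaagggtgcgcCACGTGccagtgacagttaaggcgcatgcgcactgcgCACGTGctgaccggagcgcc
Msh5: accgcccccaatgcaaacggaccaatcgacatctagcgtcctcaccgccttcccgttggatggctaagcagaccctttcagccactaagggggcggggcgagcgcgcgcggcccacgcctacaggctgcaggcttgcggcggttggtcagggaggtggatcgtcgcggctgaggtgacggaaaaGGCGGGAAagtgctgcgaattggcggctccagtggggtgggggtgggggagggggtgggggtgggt
Mlh3: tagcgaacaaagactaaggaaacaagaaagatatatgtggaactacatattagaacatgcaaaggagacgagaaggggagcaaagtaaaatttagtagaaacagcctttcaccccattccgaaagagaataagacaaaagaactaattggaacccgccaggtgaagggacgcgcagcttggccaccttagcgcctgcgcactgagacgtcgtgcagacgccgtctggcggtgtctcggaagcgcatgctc
Msh4: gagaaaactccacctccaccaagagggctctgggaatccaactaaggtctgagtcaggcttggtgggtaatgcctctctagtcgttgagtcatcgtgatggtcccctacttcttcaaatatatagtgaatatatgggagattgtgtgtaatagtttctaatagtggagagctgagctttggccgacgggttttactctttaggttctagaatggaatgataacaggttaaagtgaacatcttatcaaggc

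Both strands were searched, with no overlap between motifs, and a match is a description of the letters only. Hormad1 held 2 E-boxes, 57 and 20 bases before the start, and 1 GGCGGGAA at 96 bases. Msh5 held 1 GGCGGGAA at 66 bases. Of 27025 promoters of this length, 6.05% held CACGTG, 1.88% GGCGGGAA, 0.437% TTTGGCGC and 1.62% TGACGTCA. The 5-base core of MYB sites (CCGTT), found in 14.8% of promoters and not set in capitals, occurred 2 times in Msh5 and 1 time in Hormad2. Dmc1, Mlh3 and Msh4 held none of these motifs, and Hormad2 held none of those set in capitals. CpG dinucleotides numbered 22 in Msh5, 19 in Hormad1, 15 in Mlh3, 12 in Dmc1, 10 in Hormad2 and 4 in Msh4, against a median of 6. The RefSeq start of Msh4 lies 1247 bases from the gene start of the other annotation, so its sequence may not be the promoter used in these cells. The RefSeq starts of Msh5 and Hormad2 lie 123 and 23 bases from those gene starts. By that annotation the GGCGGGAA of Msh5 and the CCGTT of Hormad2 lie inside the genes. The motifs were chosen after the sequences had been read.

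Expression in every cell type was described for each mouse as CPM, the UMIs of a gene for each 1000000 UMIs of the cluster. This is a share of the RNA counted, and a gene can keep its share while the RNA per cell changes. Intervals are exact 95% Poisson intervals and cover counting error only.

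Spo11, which encodes the catalytic subunit that cuts DNA, was highest in both spermatocyte clusters. In mouse 1, early spermatocyte-like cells held 107 CPM (120.2 in mouse 2), and the later spermatocytes 125 (131). The mice gave 88.3 and 87.7 for the Ssxb1-led cluster, 44.7 and 44.2 among round spermatids, 7.90 and 4.82 for the Prm1-led cluster and 6.77 and 9.55 for the Hemgn-led cluster. The values of the mice did not overlap between neighbours in this order except between both late spermatid clusters. By UMIs per cell, pachytene cells held 4.22 and 4.46 molecules against 2.23 and 2.62 in early cells. The counts do not separate the splice forms of Spo11.

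The axis genes Hormad1 and Hormad2 had the same order of clusters. Hormad1 reached 454 CPM (interval 414 to 496) in early spermatocyte-like cells of mouse 1 and 277 (257 to 299) in mouse 2. It stood at 90.3 and 80.1 in pachytene or later cells, 36.1 and 31.9 for the Ssxb1-led cells, 19.4 and 13.4 among round spermatids, 12.1 and 4.82 in the Prm1-led cluster and 1.45 and 5.3 in the Hemgn-led cluster. Hormad2 was measured at 32.3 and 22.3 in early cells, 9.96 and 7.78 in pachytene or later cells, 5.44 and 4.68 in the Ssxb1-led cluster and 3.47 and 2.15 among round spermatids. It stood at or below 1.13 in both late clusters. For both genes only the pair of late spermatid clusters overlapped between mice.

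Meiob was concentrated in the early cells, at 54.5 and 20.6 CPM, and was at 5.36 and 4.43 in pachytene or later cells. The Ssxb1-led cluster had 5.61 and 4.56, overlapping the pachytene values, and round spermatid-like cells 2.08 and 1.32. The lower of the mice in early cells was above every later cluster of either mouse.

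Mlh3, the crossover endonuclease subunit, was a gene of spermatocytes and nearly absent afterwards. It was measured at 86.9 and 76.4 CPM in early cells, 37.0 and 36.4 in pachytene or later cells, and 2.04 and 1.68 in the Ssxb1-led cluster. Round spermatid-like cells had 0.926 and 0.330 CPM, from 4 and 2 UMIs. Msh5 had a narrower range, with 11.1 and 15.7 in early cells, 9.77 and 8.85 in pachytene or later cells, 5.44 and 7.92 in the Ssxb1-led cluster and 4.17 and 4.95 among round spermatids. In the Prm1-led cluster it stood at 0.564 and 1.61. By UMIs per cell its order changed, with 0.231 and 0.342 in early and 0.331 and 0.301 in pachytene or later cells.

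Msh4, the partner of Msh5, had another pattern, with its lowest share of UMIs in pachytene or later cells and its highest in the Hemgn-led late spermatids. Early cells had 23.1 and 8.67 CPM, pachytene or later cells 3.45 and 3.76, the Ssxb1-led cluster 6.46 and 5.28, and round spermatids 15.3 and 11.1. The Hemgn-led cluster reached 34.3 (interval 26.8 to 43.3) and 31.1 (25.0 to 38.3), above every other cluster in both mice, whereas the Prm1-led cluster had 12.4 and 5.78. The early, round, Prm1-led and Ssxb1-led values each overlapped the next in this order. By UMIs per cell pachytene was not set apart as the lowest, with 0.117 and 0.128 against 0.123 and 0.116 in the Ssxb1-led and 0.157 and 0.0789 in the Prm1-led cluster. In the Hemgn-led cluster 99 of 196 cells (50.5%) held an Msh4 UMI and 13.3% did after each cell was thinned to 5000 UMIs, against 11.2% and 1.90% of pachytene or later cells.

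Dmc1 was sparse and had UMIs at both ends of the series. Early spermatocyte-like cells held 7 and 7 UMIs (6.47 and 2.89 CPM), pachytene or later cells 8 and 1 (0.766 and 0.134) and round spermatid-like cells 0 and 3. The Prm1-led cluster held 24 and 20 (6.77 and 6.43 CPM) and the Hemgn-led cluster 14 and 18 (6.77 and 6.37). Both late clusters and the early cells could not be ordered, and they stood above the Ssxb1-led, pachytene and round clusters in both mice. Against the 3 UMIs of round spermatid-like cells, the Prm1-led cluster had a ratio of 22.9 (counting interval 7.33 to 115) and the Hemgn-led cluster 22.6 (7.07 to 115). The UMIs were spread over 43 of 509 and 28 of 196 cells.

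Tex11 was sparse, and most of its UMIs in the large clusters lay in Ssxb1-led cells (18 and 28) and round spermatids (11 and 20). It reached 3.06 and 3.36 CPM in the Ssxb1-led cluster, 2.55 and 3.30 among round spermatids, and 1.13 and 1.93 for the Prm1-led cells. Pachytene or later cells had 3 and 3 UMIs (0.287 and 0.402 CPM) and early cells 2 and 0, where 3 UMIs would give 2.77 and 1.24 CPM. The Ssxb1-led and round values overlapped, as did the early values with those of both late clusters.

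**Figure D1:**
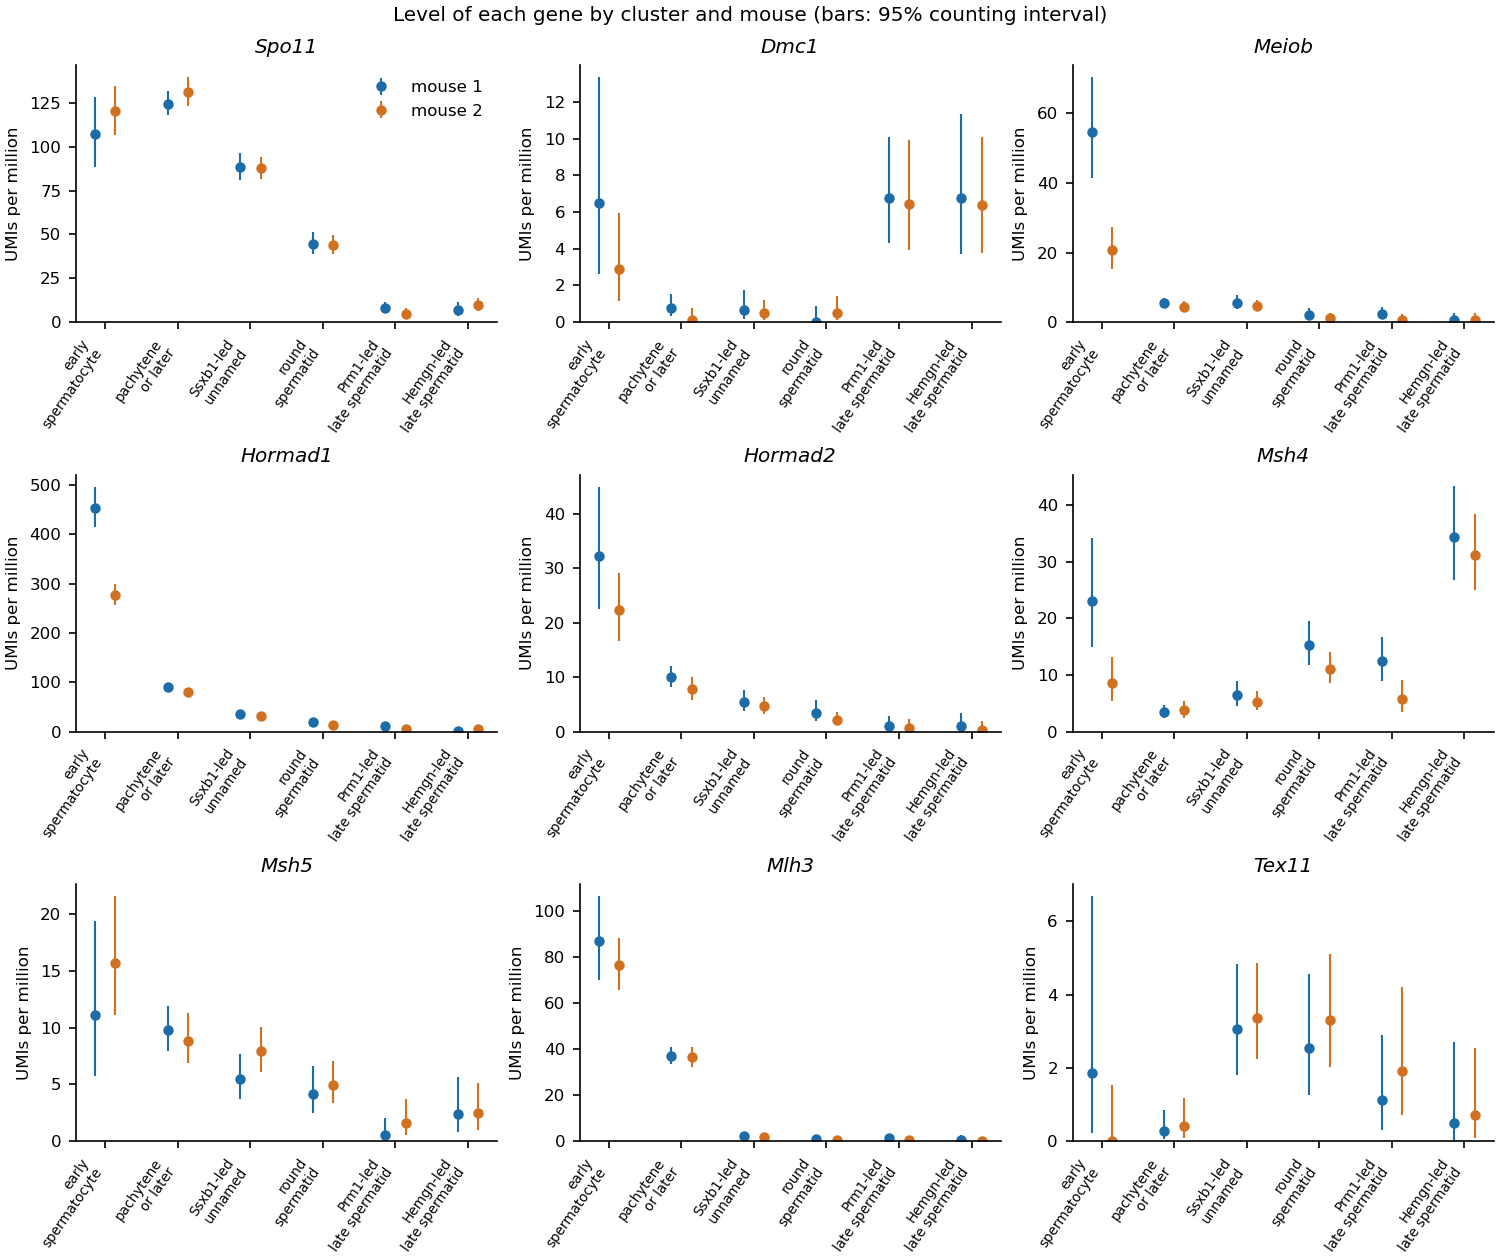
CPM of each gene (vertical axes, linear and separately scaled) in the 6 large clusters, for mouse 1 and mouse 2, with exact 95% Poisson intervals. Hormad1 falls from 454 and 277 in early cells to 19.4 and 13.4 among round spermatids, while Msh4 reaches 34.3 and 31.1 in the Hemgn-led cluster.

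Cells of the early cluster expressed several of the genes together. The median early cell held UMIs of 4 of the 9 genes in both mice, and up to 8, against 3 in pachytene or later cells, 2 in the Ssxb1-led cluster, 1 in round spermatid-like cells and 0 in the Prm1-led cluster. After thinning to 5000 UMIs the mean number was 2.15 and 1.97 in early and 1.07 and 1.21 in pachytene or later cells. All cells exceeded this depth and none was left out. Hormad1 UMIs were found in 96.9% of early cells (76.7% thinned) and Spo11 UMIs in 87.1% (44.2%), at a median depth of 19596 UMIs. Leydig-like cells, a somatic type with a median of 9856 UMIs, held 0 UMIs of Hormad1 and of Spo11 in 5 cells, which allows a share of cells with a UMI of up to 60% and sets no limit on cells that express the genes. Sertoli-like cells (median 12039 UMIs) had Hormad1 in 2, Spo11 in 1 and Meiob in 3 of 7 cells, and also held 1687 CPM of the 15 early spermatocyte markers. The part of free RNA in these shares was not tested.

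A split of the 163 early cells into 2 clusters, made after the data had been seen, gave the levels of the genes within this class. Subcluster 1 (82 cells, 29 and 53 by mouse, median 12694.5 UMIs) had 10560 CPM of the early spermatocyte markers. Subcluster 2 (81 cells, 23 and 58, median 27770 UMIs) had 4623. The pachytene or later markers summed to 6852 CPM in subcluster 1 and 9321 in subcluster 2. The subclusters were numbered by this sum, so its direction was set in advance. Of the markers in this list that were read singly, Pou5f2 (2.39 and 81.5) and Ccna1 (11.9 and 28.5) were higher in subcluster 2. Hspa2 (2297 and 1749), Piwil1 (895 and 748) and Mybl1 (126 and 90.4) were lower there. The rest of the list was not read singly, so the markers behind the higher sum are not shown. All 14 Dmc1 UMIs of the early cells lay in subcluster 1 (14.8 and 8.91 CPM), and subcluster 2 had none, where 3 UMIs would give 1.34 CPM. Meiob was at 110 and 48.4 in subcluster 1 and 11.5 and 7.33 in subcluster 2. Hormad1 stood at 825 and 549 against 167 and 147, and Hormad2 stood at 53.0 and 45.8 against 16.4 and 11.0. Msh4 was at 33.9 and 20.4 against 14.7 and 3.06. Mlh3 differed less, with 99.6 and 101.9 against 77.0 and 64.2. Msh5 had 14.8 and 20.4 against 8.19 and 13.4. After thinning to 5000 UMIs mouse 1 turned (6.90 against 17.4), but only 1 cell in each subcluster then held a UMI. The mean CPM of single cells did not turn in mouse 1 (14.4 against 7.17). Spo11 had no stable direction. It stood at 95.4 and 108 in subcluster 1 and 116 and 126 in subcluster 2, with intervals that overlapped within each mouse. After thinning, which leaves few UMIs, Spo11 was lower in subcluster 2, with 117 and 162 against 104 and 114. By the mean CPM of single cells it was higher in subcluster 2, with 98.2 and 120 against 122 and 128.

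**Figure D2:**
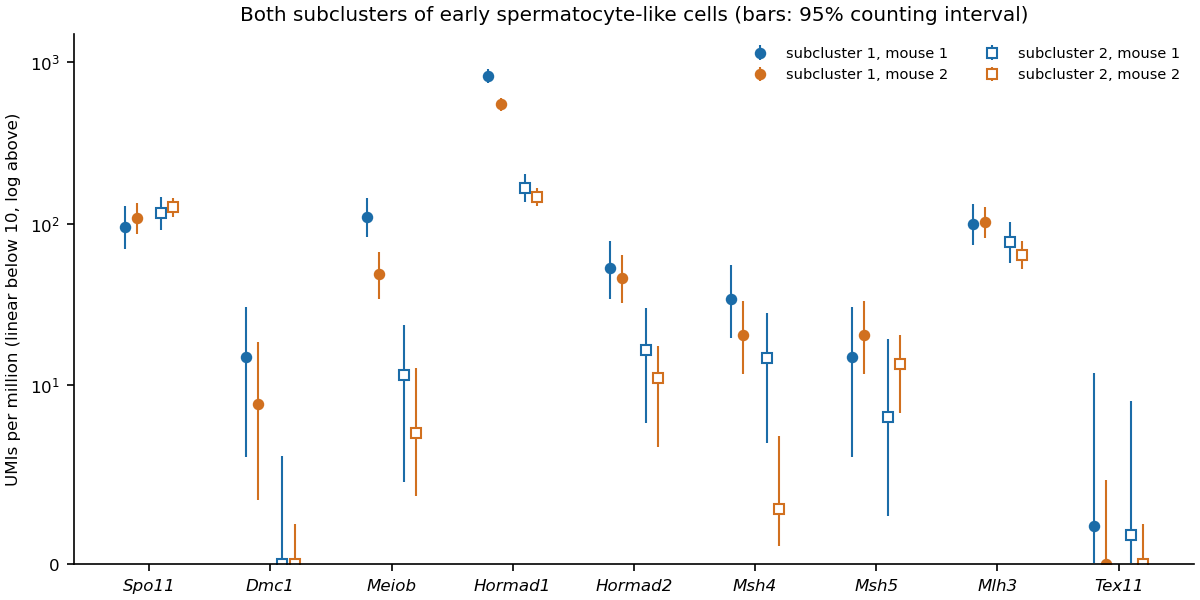
CPM of the 9 genes in both subclusters of early spermatocyte-like cells, by mouse, with exact 95% Poisson intervals (vertical axis linear below 10 and logarithmic above). Dmc1, Meiob, Hormad1, Hormad2, Msh4, Msh5 and Mlh3 lie lower in subcluster 2 in both mice. After thinning to equal depth, which leaves few UMIs, the direction turns for Msh5 in mouse 1 and for Spo11 in both mice. With the mean CPM of single cells these directions do not turn.

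Early and pachytene or later spermatocytes were compared to ask which recombination genes differ between these classes. A higher level in early cells does not place the peak of a gene, since Msh4 and Dmc1 had their highest mean CPM in late spermatid clusters. Of the 9 genes, 6 were higher in early cells, 1 was lower and 2 did not pass the test (edgeR quasi-likelihood test, adjusted p under 0.05). Over all 14993 genes and repeats tested, 23.2% were called higher and 25.1% lower, 48.3% in all. The median log2 fold change was 1.26 over the 9 genes and -0.02 over all. Dmc1 (log2 fold change 2.69, SE 0.71, adjusted p = 0.0034) and Meiob (2.49, SE 0.34, adjusted p = 4.9e-06) rose most in early cells. Hormad1 (1.77, SE 0.19), Msh4 (1.65, SE 0.36), Hormad2 (1.26, SE 0.27) and Mlh3 (0.85, SE 0.19) were also higher, with adjusted p from 1.9e-07 to 0.00079, each in both mice. Hormad2 lost its call when cells were thinned to 5000 UMIs (0.69, adjusted p = 0.28). Spo11 was lower in early cells by the scaling used (-0.44, SE 0.14, adjusted p = 0.014), a call that was lost with RLE factors (adjusted p = 0.2), with no scaling (0.33), with DESeq2 (0.27) and after thinning (0.37). Msh5 (0.31, SE 0.30, adjusted p = 0.43) and Tex11 (0.48, SE 1.20, adjusted p = 0.78) were not called.

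Pachytene or later spermatocytes were compared with round spermatids, the cells after the meiotic divisions. The 689 Ssxb1-led cells entered the fit but were on neither side of this or any other comparison. Here 6 of the 9 genes were higher in spermatocytes and 2 higher in round spermatids, against 37.5% and 37% (74.4% in all) of the genes tested. Mlh3 had the largest difference (log2 fold change 5.62, SE 0.34, adjusted p = 5.8e-12), from 37.0 and 36.4 to 0.926 and 0.330 CPM. Hormad1 (2.09, SE 0.22), Hormad2 (1.40, SE 0.33) and Spo11 (1.21, SE 0.14) were higher in spermatocytes with adjusted p from 2.6e-08 to 0.00066. Meiob (1.26, SE 0.48, adjusted p = 0.022) and Msh5 (0.71, SE 0.29, adjusted p = 0.036) were called, and both calls were lost with RLE factors, DESeq2, clustering on 2000 genes or thinning (adjusted p from 0.086 to 0.46), that of Msh5 also without the filter on low counts (0.06). Clustering on 2000 genes also changed which cells formed these classes. Msh4 (-2.16, SE 0.29, adjusted p = 1.3e-06) and Tex11 (-3.36, SE 0.59, adjusted p = 3.1e-05) were lower in spermatocytes, and Msh4 missed the threshold after thinning (-1.34, adjusted p = 0.064). Dmc1 rested on 9 and 3 UMIs and was not called (adjusted p = 0.69).

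Round spermatids were compared with elongating or condensing spermatids, with both late clusters summed. Spo11 was higher in round spermatids (1.75, SE 0.18, adjusted p = 5.8e-08), Dmc1 and Msh4 were lower, and the other 6 genes were not called, beside 26.1% called higher and 27% lower (53.2% in all) of all genes. Dmc1 had an adjusted p of 3.1e-07 in edgeR's test. Msh4 (-1.42, SE 0.25, adjusted p = 7.6e-05) was not called against the Prm1-led cluster alone (-0.62, adjusted p = 0.11) or with no scaling (-0.56, adjusted p = 0.085). The 13 marker genes of elongating or condensing spermatids summed to 200338 CPM in the Prm1-led and 84123 in the Hemgn-led cluster against 14326 in round spermatids, and the TMM factors of the late sums were 0.527 and 0.528 against 0.959 and 0.957 in round spermatids. Without these factors the median of all genes moved by 0.85 on the log2 scale. Then 6 of the 9 genes were called, beside 7520 higher and 2183 lower among the 14993 genes and repeats tested. A change of share cannot be told apart from a change in the other RNAs of the cell.

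Both spermatocyte classes against both spermatid classes, which reuse the same sums, gave 6 of 9 genes higher in spermatocytes and 2 lower, beside 39.9% and 43.2% (83% in all) over all genes. The Ssxb1-led cluster was again on neither side. Mlh3 (5.50, SE 0.24), Hormad1 (3.19, SE 0.16), Hormad2 (2.50, SE 0.27), Meiob (2.35, SE 0.34), Spo11 (1.86, SE 0.12) and Msh5 (1.17, SE 0.25) were higher. Tex11 (-2.85, SE 0.55) and Msh4 (-2.04, SE 0.21) were lower in spermatocytes, with adjusted p of 7e-05 and 1.5e-08. Early cells of mouse 1 were not low in Msh4, at 23.1 CPM against 15.3 in round and 20.5 in late spermatids. In mouse 2 they had 8.67 against 11.1 and 17.8. The Msh4 class means were 13.3 and 6.21 CPM in spermatocytes against 17.9 and 14.5 in spermatids. The log2 fold change instead averages the classes on the log scale after the TMM factors. Dmc1 was not called (-0.84, SE 0.65, adjusted p = 0.24), and its sign turned with no scaling (0.03) or after thinning (0.13).

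**Figure D3:**
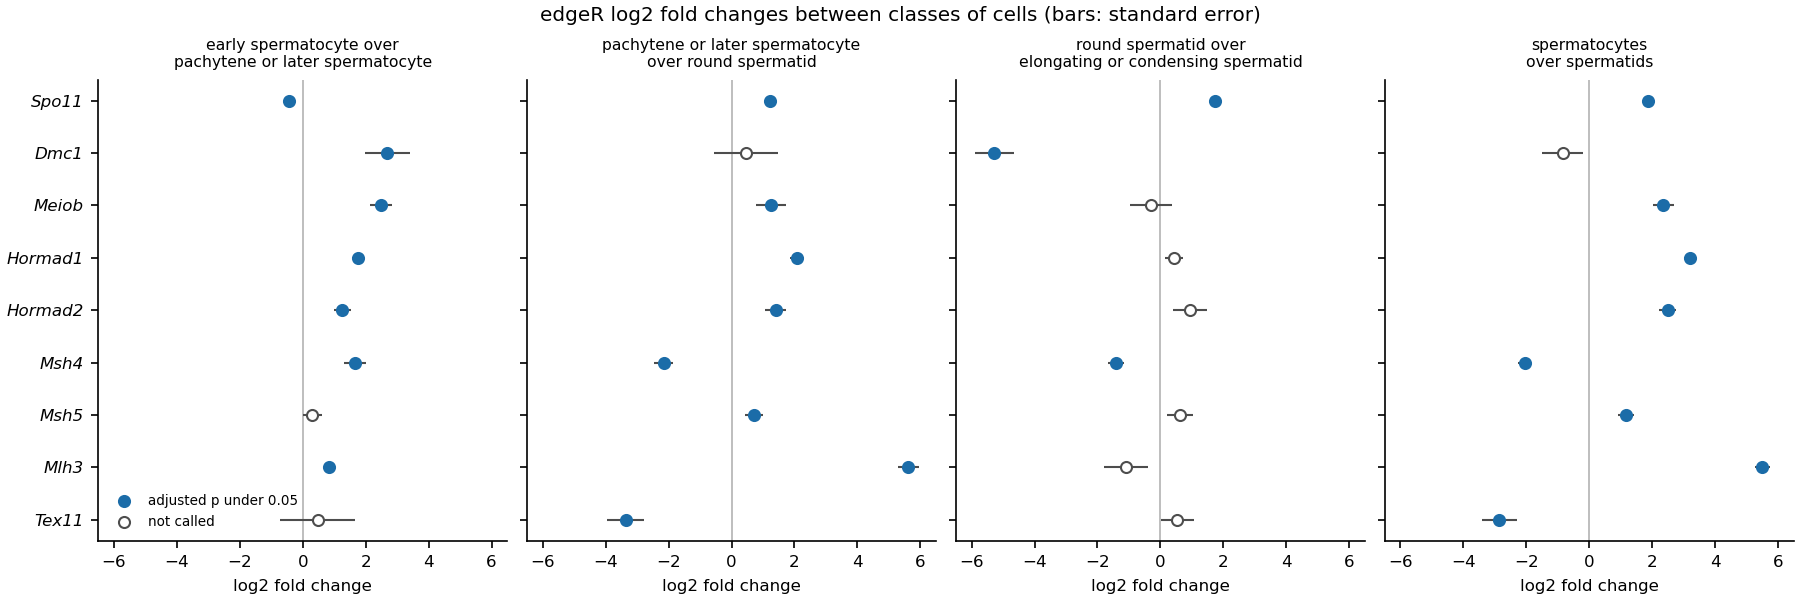
Log2 fold changes of the 9 genes in the 4 comparisons (edgeR), with standard errors derived from the F statistic as bars. Filled points have adjusted p under 0.05 and open points do not. Mlh3 stands at 5.62 between pachytene cells and round spermatids, and Msh4 and Tex11 lie left of 0 there.

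The 57 other recombination genes, listed by role, moved in the same comparisons as follows, with 53 passing the filter on low counts. The list was drawn up with earlier results of these data known. In early against pachytene or later cells, 26 were higher, 10 lower and 17 not called, and the median was 0.78 beside -0.02 over all genes. The shares were 49.1% higher and 18.9% lower, beside 23.2% and 25.1% over all genes. Of 22 crossover and resolution genes 12 were higher and 5 lower, of 25 strand exchange genes 12 and 4, and of 6 genes of break formation 2 and 1. Mnd1, a partner of the recombinases in strand invasion, was measured at 30.5 and 13.2 CPM in early and 0.862 and 0.402 in pachytene or later cells (log2 fold change 4.55, SE 0.47, adjusted p = 9.6e-08). Ccnb1ip1, which encodes the crossover factor HEI10, stood at 50.8 and 38.4 against 2.01 and 1.74 (4.21, SE 0.34, adjusted p = 4.7e-09), and Mcmdc2, needed for break repair, at 11.1 and 5.37 against 0.0958 and 0.537 (4.31, SE 0.69). Rpa1, a subunit of the general cover of exposed DNA strands, was lower in early cells (53.6 and 66.9 against 283 and 251). The nuclease gene Mre11a (20.3 and 19.8 against 54.3 and 55.1) was lower too. Mei1, needed for break formation, was also lower, from few UMIs in early cells (0.924 and 1.24 against 3.93 and 3.62, SE 0.62).

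Between pachytene or later cells and round spermatids, 32 of the 53 were higher in spermatocytes, 11 lower and 10 not called, with a median of 1.07 beside 0.11. The shares were 60.4% higher and 20.8% lower, beside 37.5% and 37% over all genes. Rad50, of the break-processing complex with MRE11, fell from 39.1 and 38.8 to 1.62 and 1.49 CPM (4.33, SE 0.25, adjusted p = 2.7e-12). Eme1, a subunit of a resolving nuclease, had 87 UMIs against 2 (ratio 25.2, counting interval 6.78 to 212), and Gm960, the TOPOVIBL partner of SPO11, had 16 against 0, at least 3.09-fold higher when 3 UMIs over both mice are taken as the limit. Tex15, which is needed for loading of recombinases, was higher in round spermatids (81.7 and 81.7 against 3.73 and 2.82, log2 fold change -4.92, SE 0.23, adjusted p = 9.1e-14). The recombinase mediator gene Swsap1 (7.87 and 6.44 against 0.670 and 0) and the mismatch repair gene Pms1 (32 UMIs against 3, ratio 18.4, interval 5.75 to 93.9) also were higher there.

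Between round and late spermatids 16 of the 53 were higher in round cells, 6 lower and 31 not called, with a median of 0.42 beside 0.03. The shares were 30.2% higher and 11.3% lower, beside 26.1% and 27% over all genes. Tex15 (8.19 and 8.75 CPM in late cells) and Brca2 (71.1 and 76.6 against 8.19 and 9.09, log2 fold change 2.23, SE 0.18), the mediator that loads recombinases, were higher in round cells, as was Gen1, a resolvase gene (31 UMIs against 3, ratio 11.5, interval 3.59 to 58.8). The helicase gene Recql4 (1.62 and 1.16 against 4.28 and 5.72) and Mnd1 (1.62 and 1.65 against 4.45 and 2.53) were lower. Ccnb1ip1 was also called lower, from 1 UMI against 7, with a ratio of late to round cells of 6.29 whose counting interval was 0.808 to 283. Over spermatocytes against spermatids 39 were higher and 8 lower, with a median of 1.48 beside -0.07. The shares were 73.6% higher and 15.1% lower, beside 39.9% and 43.2% over all genes. Xrcc3, a relative of the recombinases (3.48 and 3.47 against 0.232 and 0.165), Ccnb1ip1 and Rad50 were furthest above, and Swsap1, Tex15 and Recql4 furthest below. For Xrcc3 (log2 fold change 4.82, SE 0.77) round spermatids had 0.463 and 0.330 CPM and late spermatids 0 in both mice. Its rank therefore rests on few UMIs.

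Tex11 is encoded on the X chromosome, which is known to be transcriptionally silenced in pachytene spermatocytes. Of 2611 X-linked genes, 418 passed the filter, which keeps a low gene if it is high in some class, so their counts are a description. Between pachytene or later cells and round spermatids 360 of the 418 (86.1%) were lower in spermatocytes and 6 (1.4%) higher. Over all genes 37% were lower and 37.5% higher. The median log2 fold change was -4.13 beside 0.11 over all genes, and Tex11 had -3.36. Between early and pachytene or later cells 15 (3.59%) were higher and 63 (15.1%) lower, beside 23.2% and 25.1% over all genes. The median was -0.44. Between round and late spermatids 123 (29.4%) were higher and 138 (33.0%) lower, beside 26.1% and 27% over all genes. The median was 0.11. Over spermatocytes against spermatids 8 (1.91%) were higher and 375 (89.7%) lower, beside 39.9% and 43.2% over all genes.

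**Figure D4:**
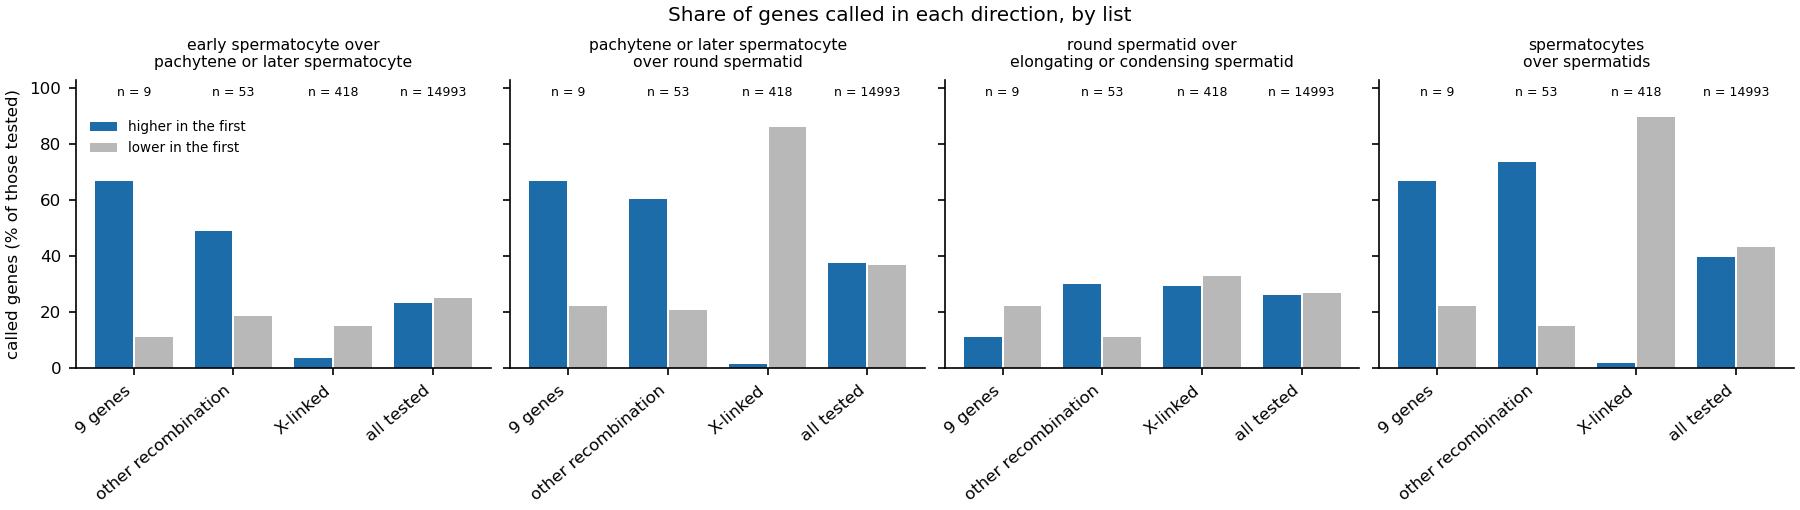
Percent of tested genes called higher or lower in the first class of each comparison, for the 9 genes, the other recombination genes, X-linked genes and all genes and repeats. Between pachytene cells and round spermatids 360 of 418 X-linked genes are called lower, while 32 of 53 other recombination genes are called higher. Over all genes 37% are called lower and 37.5% higher.

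The mice differed for some of the genes in the early cells. Hormad1 was 1.64 times as high in mouse 1 as in mouse 2 (counting interval 1.45 to 1.84), Meiob 2.64 times (1.78 to 3.93) and Msh4 2.66 times (1.43 to 5.0). For the other 4 genes with at least 20 UMIs, Spo11, Hormad2, Msh5 and Mlh3, the interval held 1. An interval that left out 1 was found for 20.3% of 8750 genes in the same cells, against 3 of 7 here. Mouse 1 had 29 of its 52 early cells in subcluster 1 and mouse 2 had 53 of 111, and within subcluster 1 Hormad1 was still at 825 and 549 and Meiob at 110 and 48.4, whereas Msh4 had 33.9 (interval 19.4 to 55.1) and 20.4 (11.6 to 33.1), which overlapped. In pachytene or later cells Hormad1 alone among 7 genes left out 1 (ratio 1.13, interval 1.02 to 1.25), where 20.2% of genes did. Among round spermatids 1 of 6 did, Hormad1 (1.45, 1.06 to 2.0), beside 17.8%. In the Prm1-led cluster 2 of 4 did, Hormad1 (2.52, 1.37 to 4.88) and Msh4 (2.15, 1.22 to 3.95), beside 19.1%. In the Ssxb1-led cluster 0 of 8 did (24.3%) and in the Hemgn-led cluster 0 of 3 (15.8%). There Hormad1, below 20 UMIs, lay the other way (0.273, 0.0507 to 0.966).

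Germ cells were also ordered by diffusion pseudotime, built without the recombination genes, and cut into 40 bins of 63 or 64 cells. The order started from the cell with the highest share of UMIs on Stra8, Gm4969, Meioc, Prss50, Dmrtc2 and Ccnd2. Ccnd2 is on the list of spermatogonium markers and the others are on that of early spermatocytes. Hormad1, Hormad2, Meiob, Mlh3, Dmc1 and Tex11 had their highest level in bin 1, where 90.6% of cells were early spermatocyte-like and 6 were spermatogonium-like. Hormad1 stood at 945 and 615 CPM in bin 1, 294 and 247 in bin 2 and 114 and 98.8 in bin 3. Meiob had 146 and 65.7 in bin 1 and 12.2 and 9.26 in bin 2. Mlh3 kept 30.5 and 33.9 up to bin 11, where 92.2% of cells were pachytene or later spermatocyte-like, and was at 12.6 and 9.45 in bin 12 and 1.77 and 4.33 in bin 13, among Ssxb1-led cells. Spo11 was highest in bin 5 (139 and 166) and still stood at 57.3 and 46.2 in bin 25, among round spermatid-like cells. Msh4 was highest in bin 37 when the mice were summed (30.7 and 38.4), but in mouse 1 alone bin 40 was highest (39.9). With 15 neighbours the highest bin for Msh4 was bin 30 for the sum of the mice and bin 1 for mouse 1 (43.0), so the place of its peak depends on the setting. Bins 29 to 40 held cells of both late clusters and of round spermatids, so no order is read within them. Bin 1 held 8 Tex11 and 16 Dmc1 UMIs and 6 of the 7 spermatogonium-like cells. Those 7 cells had 7 Tex11 and 4 Dmc1 UMIs in all. With 20 bins Tex11 had its highest level at bin 10 for the sum of the mice. Dmc1 kept bin 1 for the sum and for mouse 1. In mouse 2 Dmc1 was highest at bin 15 (7.24 CPM from 5 UMIs), where elongating or condensing spermatid-like cells were the most numerous.

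**Figure D5:**
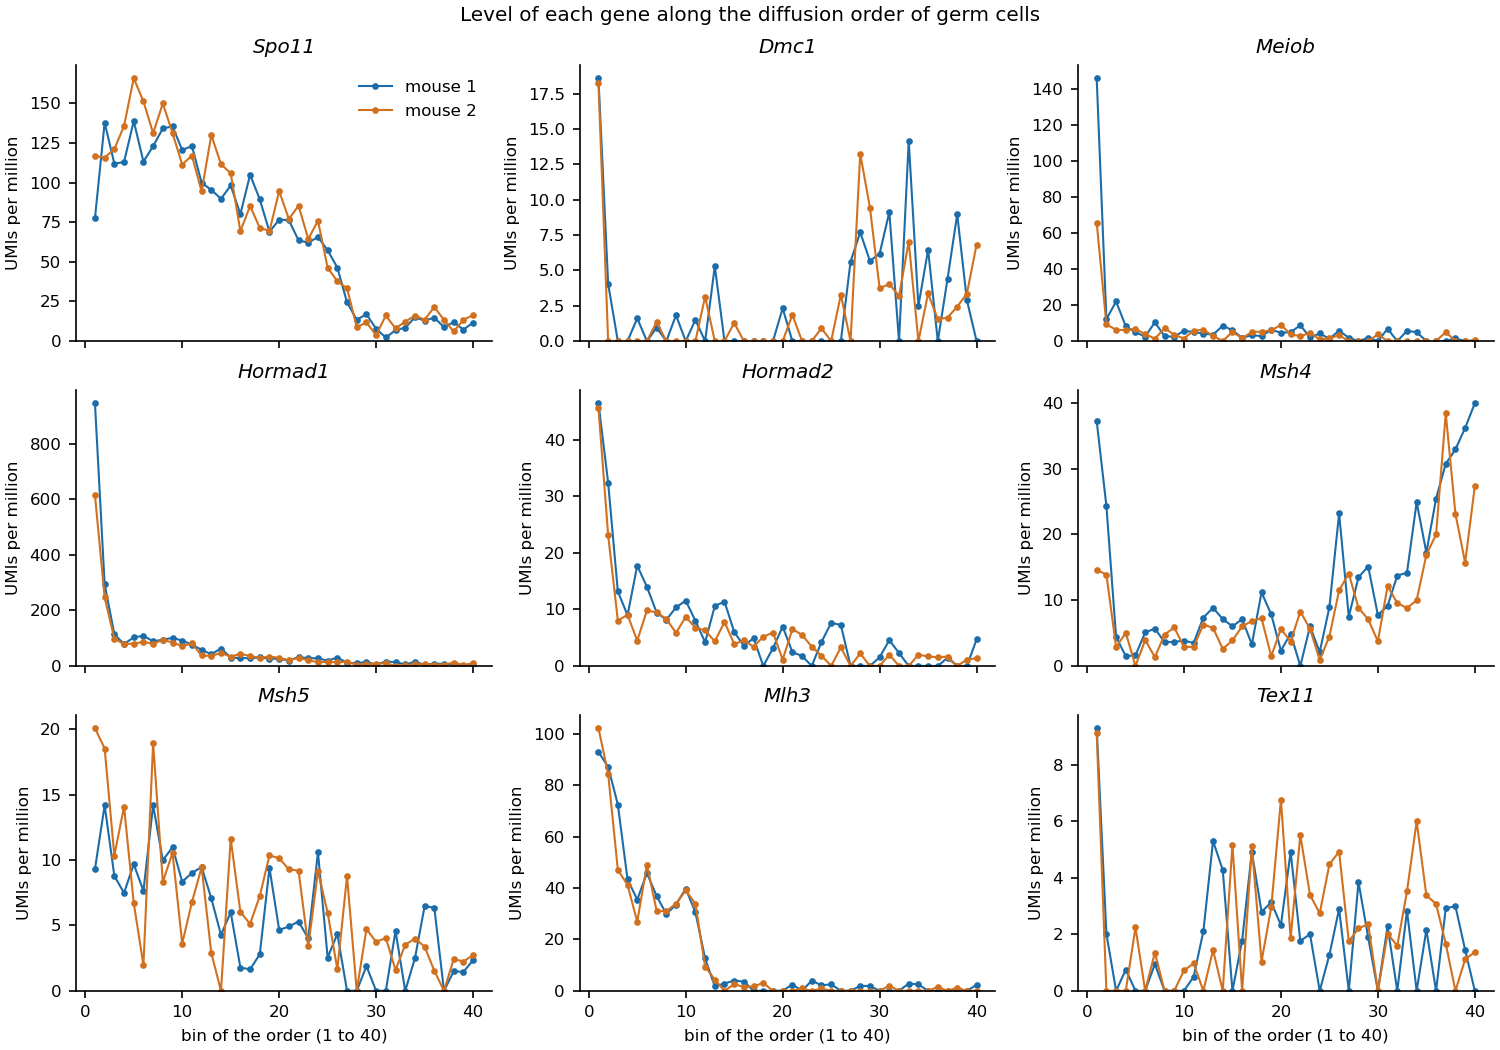
CPM of each gene in 40 bins of the diffusion order of germ cells (horizontal axis, bin number), for each mouse. Hormad1 drops from 945 and 615 in bin 1 to 114 and 98.8 in bin 3, and Mlh3 is nearly lost by bin 13. Msh4 stands at 37.2 and 14.6 in bin 1. Summed over the mice, Msh4 is highest in bin 37 (34.3), among bins that are not read in order.

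Similarity of profiles was described by Pearson's r of log2(CPM + 10) over 12 sums, the 6 large clusters in each mouse, among 10407 genes with at least 200 UMIs. The sums share the mice and the same split of cells, so r is a description. Hormad1 was close to Hormad2 (r = 0.98), Mlh3 (0.94) and Meiob (0.91), and Hormad2 to Meiob (0.95). Msh4 and its partner Msh5 were not alike (r = -0.35). The genes most like Hormad1 were Mrpl48, Polr2g and Abt1 (r = 0.99 each), yet 18.5% of all genes exceeded 0.9 with it. For Spo11 they were Matr3, Cops7a and G730003C15Rik (17.7% over 0.9), for Hormad2 Cinp, Cox14 and Tmem168 (16.1%), for Msh5 Reps1, Cbl and Dap3 (17.1%), and for Mlh3 Traf2, BC049730 and Rnf6 (14.1%). Meiob was most like Ccdc9, H1f0 and Kat6a (5.74%). For the remaining genes a smaller share exceeded 0.9. Dmc1 and Tex11, with 115 and 105 UMIs, lie below the 200 UMIs required of the compared genes. Their levels in the large clusters also all lie below the 10 added to each CPM. Counting error can lower r for such genes, so their shares are not read as a rare profile. Dmc1 was nearest to Actn4 (r = 0.98), Rab10os and 2810013P06Rik, with 0.346% of genes over 0.9, Msh4 to C1d (0.95), Hbp1 and Mkl2 (0.0769%), and Tex11 to Atf1 (0.93), Ncoa2 and 1700065O20Rik (0.0384%).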

How the data were processed

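Dissociated testis cells of 2 mice were profiled as single cells (Chromium 3' v2). According to the submitters' processing notes and the study's methods, the authors ran bcl2fastq 2.17.1.14 and Cell Ranger 2.0.0 on a repeat-masked GRCm38 genome (Ensembl annotation) with repeat elements added as sequences of their own, combined both mice and downsampled reads so that the mice matched in mean reads per cell (the median UMIs of a cell remained 17871 and 19184). The deposited matrix holds raw UMI counts. Reads in masked parts of a transcript could not be counted. The suffix of each barcode gave the mouse.

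From these counts, the 10 first principal components were clustered by K-means (K = 9, seed 42, scikit-learn 1.9.0) over 27724 rows without the 66 recombination genes. Clusters were named from marker lists where at least 3 markers were raised, and 25 cells called as doublets (0.980%) were kept. UMIs were summed per mouse over 4 classes and the unnamed cluster, giving 10 sums, and tested with edgeR 4.0.16 (quasi-likelihood test, TMM factors, filterByExpr, Benjamini-Hochberg adjustment over all 14993 genes and repeats). The SE given with a log2 fold change was derived from the test, as the absolute log2 fold change divided by the square root of its F statistic. DESeq2 1.42.0 was an alternative. Both tools were also run on simulated counts for the first comparison, with equal class means apart from a small set of changed genes. That setting lacks the broad shifts between classes found here, so it does not check the scaling. Ordering used scanpy 1.11.5 with 30 neighbours.

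Sums of the same number come from the same animal. Their deviations from the class means correlated with r from 0.034 to 0.20 over pairs of classes. The main fit had no mouse term and treated the sums as independent. Its p-values set differences between classes against a spread shared over all classes and drawn toward that of other genes. The mice come from 1 litter, so these p-values do not cover the spread between litters.

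Named genes were the 9 genes, the 3 genes most like each, and the 3 other recombination genes with the largest called change in each direction. The 9 genes and all lists were chosen with earlier results of these data known. Promoters came from RefSeq and positions from GENCODE, to which 50376 of 50686 genes matched by identifier.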

Additional observations from a re-analysis of the deposited data

Results flagged for a closer look

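Cells outside the comparisons held UMIs of 3 of the genes above the limit that a count of 0 allows. In the 7 spermatogonium-like cells (74742 UMIs in all), where 3 UMIs would give 40.1 CPM, Tex11 had 7 UMIs in 5 cells (93.7 CPM, interval 37.6 to 193), Hormad1 had 5 in 2 cells (66.9, interval 21.7 to 156) and Dmc1 had 4 in 3 cells (53.5, interval 14.6 to 137). In the 7 Sertoli-like cells Hormad1 had 4 UMIs in 2 cells (47.2 CPM, interval 12.8 to 121), with a limit of 35.4. Intervals cover counting error only, and all of them reach below the limit of their cells. The Hormad1 UMIs of spermatogonium-like cells came from 1 mouse (mean 56.9 CPM, SD 80.4 over the mice). The Tex11 level in spermatogonium-like cells was 65.0 CPM in mouse 1 (3 cells) and 114 in mouse 2 (4 cells), and was not compared with other cells by a test.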

How the results depend on the processing

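The 4 comparisons were repeated with DESeq2, other scalings, no filter, a mouse block, other clusterings, without doublets or repeats, and thinned, and 2 late-class definitions were added after the data had been seen. The replicate block called 7, 8, 3 and 8 of the 9 genes in the 4 comparisons in order, as without it, and 7843, 11632, 8570 and 12669 of all genes. Early against pachytene or later cells, thinning left 4819 genes, 21 other recombination genes and 37 X-linked genes called. With 2000 genes for clustering 200 X-linked genes were called, beside 3565 higher and 4667 lower over all genes. The main clustering gave 15 X-linked higher and 63 lower. Clustering on 2000 genes also changed the classes, and it left no cluster unnamed. Of 368 cells in a pachytene or later cluster 72 were in the main class, and of 544 in a round spermatid cluster 151 were. Pachytene against round cells, thinning left 4 of the 9 genes, 7098 genes, 24 other recombination genes and 226 X-linked. Round against late cells, no scaling called 6 of the 9 and 37 other recombination genes, beside 7520 higher and 2183 lower over all genes. Clustering on 2000 genes called 5 of the 9, beside 4515 higher and 4463 lower over all genes. Thinning left 9 other recombination genes, beside 2755 higher and 2783 lower over all genes. Spermatocytes against spermatids, thinning left 236 X-linked genes, beside 4014 higher and 4590 lower over all genes. Thinning keeps fewer UMIs, so fewer low genes pass.

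In round against late spermatids Hormad1 also passed the threshold against the Hemgn-led cluster alone (1.63, adjusted p = 0.0045), Mlh3 against the Prm1-led cluster alone (-1.92, adjusted p = 0.029) and Hormad2 without doublets (1.30, adjusted p = 0.049).

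Signs turned for values that were not called. These were Tex11 in early against pachytene cells with 2000 genes (-1.79) and, in round against late spermatids, Meiob with no scaling (0.54), with 2000 genes (0.63) and against the Hemgn-led cluster (0.89), Hormad1 (-0.21) and Tex11 (-0.13) against the Prm1-led cluster, Mlh3 against the Hemgn-led cluster (0.93) and Hormad2 after thinning (-0.29). Dmc1 in spermatocytes against spermatids turned to 0.031 with no scaling and 0.13 after thinning. The cause was not tested.

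No scaling moved the median of all genes by 0.25, 0.31, 0.85 and 0.87 on the log2 scale in the 4 comparisons, and DESeq2 by 0.25, -0.23, -0.10 and -0.17. Of all calls in early against pachytene cells 48.0% were higher in early cells, and 61.1% with no scaling, 59.2% with DESeq2 and 58.9% with RLE factors. With no scaling it was 77.5% against 49.2% in round against late spermatids and 61.7% against 48.0% in spermatocytes against spermatids. Without 1 mouse no test is left. In each mouse alone no gene called in a comparison changed sign.

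The count of genes highest in early cells was 5, and 4 to 6 by other scales. Depth limits Dmc1 and Tex11 most, with 115 and 105 UMIs in all.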
